A study of Homo sapiens with 4 samples.

Results

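The stretch of chromosome 7q21 from 80 to 92 Mb was examined in paclitaxel-sensitive and paclitaxel-resistant anaplastic thyroid cancer (ATC) cells. Its members were all gene names that the deposited gene tables place on chromosome 7 with a start between 80 and 92 Mb (hg38), 44 of 26485 names, among them ABCB1 and ABCB4. RefSeq types 34 of them as protein coding, and 5 are now listed under another symbol, such as KIAA1324L (now ELAPOR2) and LOC102723885 (now SRI-AS1). SW1736 and 8505C are established cell lines derived from ATC. The wild-type (wt) cells of both were sensitive to paclitaxel, a taxane that stabilizes microtubules, and received none. The SW1736-PTX and 8505C-PTX cells were obtained by raising paclitaxel from 1 nM to 1.5 µM over 6 months and were kept at 1.5 µM. Whether the resistant cultures were single clones or mixed populations is not given in the sources used here. Each of the 4 kinds of cell gave 1 mRNA library, so no difference could be set against the spread between cultures and no test was made. In such bulk RNA, more cells of a kind and more RNA per cell cannot be told apart.

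ABCB1, also known as MDR1, encodes P-glycoprotein, a pump of the plasma membrane that uses ATP to move bulky hydrophobic drugs out of the cell. Taxanes, vinca alkaloids and anthracyclines are among its substrates, and its overexpression is a classical form of multidrug resistance. ABCB4, its neighbour and closest relative, encodes a flippase that moves phosphatidylcholine into bile. In cultured cells selected with such drugs, extra copies of the chromosome segment that holds ABCB1 are a long-known event, in which flanking genes such as SRI can be carried along. Genes that share a segment but no function are therefore described here by position, from the ABC transporters outwards.

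The libraries were checked against their labels first. They held 43.5 to 57.9 M aligned reads of 75 bases, estimated from the ratio of coverage to FPKM (fragments per kb of transcript, scaled to the aligned fragments). Of 4 epithelial markers, the keratins KRT8 and KRT18 were above 250 FPKM in all 4 libraries, whereas EPCAM and CDH1 were at most 0.0806 and 0.0277. The immune marker PTPRC and the endothelial marker PECAM1 also stayed below 0.5. The collagens COL1A1 and COL1A2, markers of fibroblasts, were at 153 and 104.1 FPKM in SW1736 wt and at 2.19 and 1.67 in SW1736-PTX. In 8505C, COL1A1 was at 0.217 FPKM in wt and 1.112 in PTX cells, and COL1A2 was listed at 0 in both. PAX8, a transcription factor of the thyroid lineage, was at 38.2 FPKM in SW1736 wt and at 0.206 in SW1736-PTX, 0.123 in 8505C wt and 0.146 in 8505C-PTX. NKX2-1, a second thyroid factor, was at 36.3 FPKM in SW1736-PTX, 30.5 in 8505C wt and 39.0 in 8505C-PTX, with a listed 0 in SW1736 wt. Across 14692 genes, which are not independent replicates, Pearson's r of the library labelled SW1736-PTX was 0.767 with SW1736 wt, 0.873 with 8505C wt and 0.933 with 8505C-PTX, the highest of the 6 pairs of libraries. The library labelled SW1736-PTX thus stood closer to both libraries of the other line than to its own parental line. Its main counts and medians, its segment and the values of many single genes are therefore also given against 8505C wt. That second comparison shares its control library with the 8505C pair, and whether the lines were exchanged or mixed was not tested. In a fold against SW1736 wt, a difference between lines and a difference between resistant and sensitive cells cannot be told apart.

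Changes were computed as log2((PTX + 0.1)/(wt + 0.1)) of FPKM, which understates the change of low genes. Names above 0.5 FPKM in at least 1 library of a pair entered the comparison, and values beyond 1.5 were called up or, below -1.5, down. Of the 44 members, 30 passed 0.5 FPKM in at least 1 library and 19 in all 4, while 7 were listed at 0 throughout. In SW1736, 16 of the 29 members compared were called up (55.2%), against 15.7% of all genes compared, and 0 were called down, against 10.2%. In 8505C, 16 of 28 were called up (57.1%), against 15.0% of all genes, and 1 was called down, against 5.89%. With 8505C wt as the reference of SW1736-PTX, 18 of 29 were called up (62.1%, against 15.1% of all genes) and 0 down (against 5.23%). The median log2 fold change of the members was 1.60 in SW1736, 2.03 in 8505C and 2.12 in SW1736-PTX against 8505C wt, beside medians of 0.01, 0.11 and 0.10 over all genes compared. A member that passed the level limit only through its PTX library had to be raised, so the counts describe the compared members and not all 44. Of the 27 members compared in both pairs, 11 were called up in both, 73.3% of the 15 called in each line. Over all 13304 genes compared in both, 981 were called up in both, 49.4% of the calls in SW1736 and 53.6% of those in 8505C.

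ABCB1 lies on the minus strand of chromosome 7 (87503863 to 87713323). SW1736 wt had it listed at 0, where 3 reads on its canonical transcript of 5205 bases would give 0.0118 FPKM, and at 0.363 in 8505C wt, about 82.3 reads. The level was 302.3 FPKM in SW1736-PTX and 497 in 8505C-PTX. Both PTX libraries were thus far above both wt libraries. The log2 fold change was 11.56 in SW1736 and 10.07 in 8505C, ranked second of 14202 genes and first of 13794. Against 8505C wt, SW1736-PTX was 832-fold higher and again ranked first.

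ABCB4 (87402045 to 87475703) was listed at 0 in both wt libraries, at 0.434 FPKM in SW1736-PTX and at 4.38 in 8505C-PTX, about 108 and 1006 reads. It was therefore called up in 8505C (log2 fold change 5.48) but stayed under the level limit in SW1736. Its transcript resembles that of ABCB1. Of 4219 windows of 75 bases in the ABCB4 transcript, 225 (5.33%) matched an ABCB1 window with at most 2 mismatches and 54 matched exactly. How many ABCB4 reads arose from ABCB1 was not tested.

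RefSeq gives ABCB1 a pair of start sites, and their windows from 250 bases before to 50 after the start are shown because this gene had the largest increase of the region in both lines. The first window (GRCh38.p14, chr7:87600835-87601134, minus strand) lies at the canonical start and the second (chr7:87713246-87713545, minus strand) at the distal start. Capitals mark matches to CCAAT or its reverse complement ATTGG, the motif of the CCAAT box, and to GGGCGG or CCGCCC, the motif of the GC box.
ABCB1 canonical start: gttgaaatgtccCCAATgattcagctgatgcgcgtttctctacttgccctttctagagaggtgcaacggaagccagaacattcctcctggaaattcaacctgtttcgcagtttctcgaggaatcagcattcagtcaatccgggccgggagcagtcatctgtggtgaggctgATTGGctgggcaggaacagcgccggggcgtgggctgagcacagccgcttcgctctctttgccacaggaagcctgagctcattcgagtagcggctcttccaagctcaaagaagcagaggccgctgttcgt
ABCB1 distal start: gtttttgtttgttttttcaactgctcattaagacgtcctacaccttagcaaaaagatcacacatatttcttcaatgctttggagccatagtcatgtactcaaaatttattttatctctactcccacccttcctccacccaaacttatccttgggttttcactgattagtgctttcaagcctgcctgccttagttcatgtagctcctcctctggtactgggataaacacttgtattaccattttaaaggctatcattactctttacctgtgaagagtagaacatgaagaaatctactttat

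The canonical window held 2 matches to the CCAAT motif, 1 of them as ATTGG, and none to the GC box, and 55.3% of its bases were G or C. The distal window held none of either and was 37.7% G or C. Neither window matched the NF-kB consensus, which 11.3% of 35116 RefSeq windows held. Sequence outside the windows was not searched, so sites elsewhere around the gene would not be seen. The letters CCAAT or ATTGG occurred in 34.6% of all windows and the GC box motif in 45.0%. A match describes letters only, and the FPKM of a gene do not show which start was used.

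Between KIAA1324L and STEAP4 (chromosome 7, 86876906 to 88306913, 1.43 Mb), 14 names surround and include ABCB1. These borders come from a list of genes near ABCB1 that was drawn up with earlier results of these data known. Counts inside and outside the stretch may therefore follow from that choice, and they only describe it. All 14 were compared in 8505C and all 14 were called up (beside 15.0% of all genes), with a median log2 fold change of 4.19. In SW1736, 13 were compared, 9 were called up (beside 15.7% of all genes) and all 13 were above 0. The median was 2.73, or 1.52 over the 8 that were above 0 in both libraries. The 4 not called were DMTF1, CROT, SLC25A40 and DBF4. Against 8505C wt, 10 of 13 were called up in SW1736-PTX (beside 15.1% of all genes), again with a median of 2.73. DMTF1 (log2 fold change 1.72) and CROT (3.17) were called there, whereas ADAM22 was not. KIAA1324L was at 4.53 in that comparison, TMEM243 at 2.55, TP53TG1 at 4.70 and RUNDC3B at 4.48. SRI was at 2.62, SRI-AS1 at 2.73 and STEAP4 at 4.21. Leaving out ABCB1 and RUNDC3B, which overlaps it, 12 of 12 were called in 8505C and 7 of 11 in SW1736.

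On the side of ABCB1 nearer the centromere, KIAA1324L (86876906 to 87059698), a transmembrane protein, went from a listed 0 in SW1736 wt to 15.5 FPKM in the PTX cells, and from 0.574 to 71.4 in 8505C. Its log2 fold changes of 7.29 and 6.73 placed it 65th and 10th among all genes compared. DMTF1 (87152361 to 87196332), a transcription factor that induces ARF, was at 10.1 and 28.0 FPKM in SW1736 and at 8.45 and 82.1 in 8505C, log2 fold changes of 1.47 and 3.27. TMEM243 (87196162 to 87219715), which overlaps the end of DMTF1 on the other strand by 171 bases, was at 13.8 and 40.5 FPKM in SW1736 and at 6.81 and 124 in 8505C, log2 fold changes of 1.54 and 4.17. DMTF1 and TMEM243 were expressed in both wt libraries and KIAA1324L hardly in either, and for each of the 3 genes 8505C-PTX had the highest level.

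TP53TG1 (87325348 to 87345492), a long noncoding RNA named for its induction by p53, and CROT (87345635 to 87399796), the peroxisomal carnitine O-octanoyltransferase, lie head to head with 142 bases between them. TP53TG1 was at 2.13 and 37.3 FPKM in SW1736 and at 1.34 and 103.7 in 8505C, 17.5- and 77.3-fold higher in the PTX library. For CROT, the levels were 5.96 and 17.0 FPKM in SW1736 and 1.79 and 34.9 in 8505C, ratios of 2.84 and 19.5. The 2 genes of this pair thus differed in their ratios in both lines, although their RefSeq start windows share 271 bases.

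On the other side of ABCB1, SLC25A40 (87834499 to 87876377), a mitochondrial glutathione carrier, and DBF4 (87876229 to 87909541), the activating subunit of the replication kinase CDC7, also start back to back and overlap by 149 bases. SLC25A40 was at 8.37 and 12.5 FPKM in SW1736 and at 5.06 and 60.2 in 8505C, ratios of 1.50 and 11.9. DBF4 was at 17.2 and 19.3 FPKM in SW1736, a ratio of 1.12, and at 12.2 and 57.0 in 8505C, a ratio of 4.68. These were the smallest changes of the 13 compared genes in SW1736, and against 8505C wt they were not called either (log2 fold changes of 1.29 and 0.66).

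The windows of CROT (GRCh38.p14, chr7:87345414-87345713, plus strand) and DBF4 (chr7:87876243-87876542, plus strand) are shown because each also holds most of the window of its partner, TP53TG1 or SLC25A40. Capitals mark the same motifs as for ABCB1.
CROT: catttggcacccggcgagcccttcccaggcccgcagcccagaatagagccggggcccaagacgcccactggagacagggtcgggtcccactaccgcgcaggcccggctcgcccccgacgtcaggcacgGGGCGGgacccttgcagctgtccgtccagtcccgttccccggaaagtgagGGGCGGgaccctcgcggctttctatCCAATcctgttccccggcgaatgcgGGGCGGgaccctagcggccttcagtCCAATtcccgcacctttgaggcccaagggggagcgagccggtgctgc
DBF4: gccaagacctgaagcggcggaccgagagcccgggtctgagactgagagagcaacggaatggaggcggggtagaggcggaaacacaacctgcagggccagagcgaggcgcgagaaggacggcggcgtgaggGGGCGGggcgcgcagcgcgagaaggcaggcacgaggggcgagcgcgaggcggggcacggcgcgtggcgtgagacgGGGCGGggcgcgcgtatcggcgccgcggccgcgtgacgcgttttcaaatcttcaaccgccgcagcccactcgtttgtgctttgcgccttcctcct

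The CROT window held 3 GC box and 2 CCAAT matches with 70.0% G or C, and the DBF4 window held 2 GC box matches and no CCAAT match with 70.7% G or C. Of the 14 names of the stretch, 13 had windows in RefSeq, 18 windows in all. Of these 18, 13 held a GC box match (72.2%, beside 45.0% of all windows) and 9 a CCAAT match (50.0%, beside 34.6%). Windows that overlap, those of the head-to-head pairs and 2 of TMEM243, count the same matches more than once, so these shares are not over separate sequences.

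RUNDC3B (87628413 to 87832298), a RUN domain protein, overlaps ABCB1 on the opposite strand over 84911 bases. Its level was 14.8 FPKM in SW1736-PTX against a listed 0 in the parental cells, and 34.1 against 0.570 in 8505C. The log2 fold changes were 7.22 and 5.67. The strand setting of the counting is not given in the sources used here, so reads of ABCB1 and RUNDC3B cannot be told apart in the shared part. Transcripts from the canonical start of ABCB1 (window 87600835 to 87601134) do not reach the shared part, whereas those from the distal start do. ADAM22 (87934251 to 88202889), a synaptic receptor of LGI proteins without protease activity, was at 0.743 and 2.45 FPKM in SW1736 and at 1.04 and 3.15 in 8505C. Its log2 fold changes of 1.60 and 1.51 lay just past the limit, and with 8505C wt as the reference of SW1736-PTX the value was 1.16.

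SRI (88205117 to 88226993), which encodes the calcium-binding protein sorcin, was the most abundant member in both wt libraries. It was at 29.7 and 224 FPKM in SW1736 and at 36.4 and 517 in 8505C, ratios of 7.54 and 14.2. In 8505C-PTX its level was close to that of ABCB1, which was 497 FPKM. SRI-AS1, listed as LOC102723885 and overlapping SRI by 2565 bases on the other strand, was at 0 in both wt libraries, at 0.563 FPKM in SW1736-PTX and at 1.57 in 8505C-PTX. STEAP4 (88276429 to 88306913), a metalloreductase that reduces iron and copper, reached 2.42 FPKM in SW1736-PTX against a listed 0 in the parental cells, and 12.4 against 0.0367 in 8505C. Its log2 fold changes were 4.66 and 6.51, the latter 14th of all genes compared in 8505C.

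**Figure D1:**
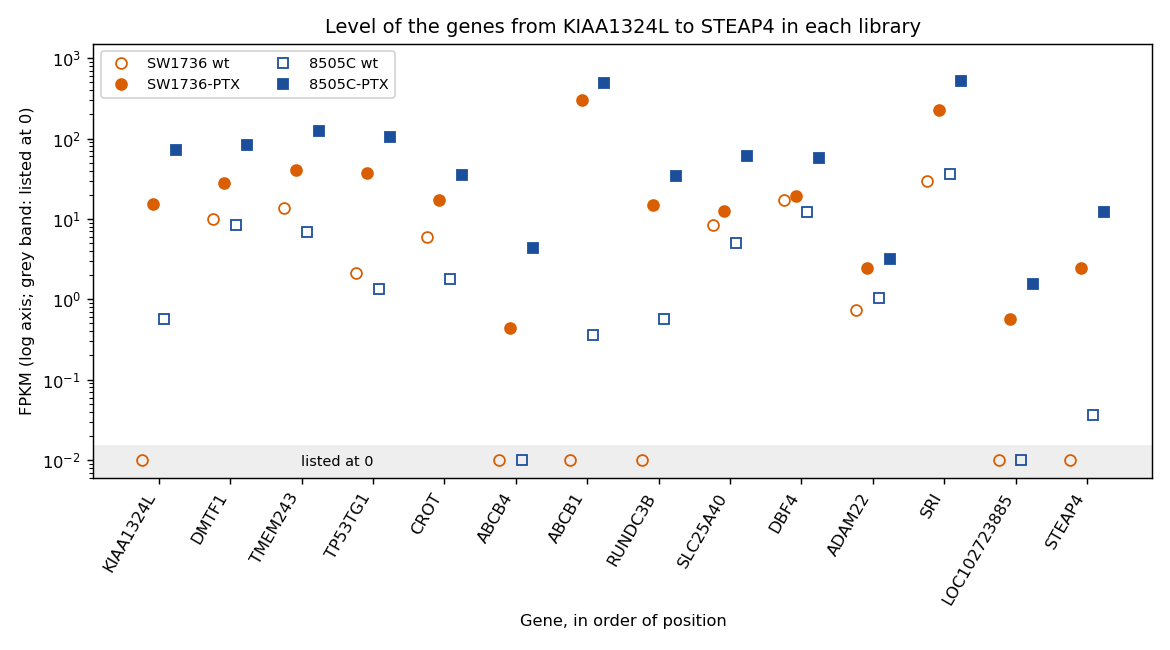
FPKM on a log axis of the 14 genes from KIAA1324L to STEAP4, in order of position, in each of the 4 libraries (open symbols wt, filled symbols PTX; 1 library each, no error bars). For every gene the filled square of 8505C-PTX is the highest, at 497 FPKM for ABCB1 and 517 for SRI, and the grey band holds genes listed at 0.

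The raised segment was then traced gene by gene from ABCB1 until 2 consecutive compared genes were not called up. Both ends were set at a called gene, so a high share of calls within a run follows from the rule. In 8505C the segment ran from SEMA3D to STEAP4 (84995556 to 88306913, 3.31 Mb), and all 15 compared genes in it were called up. It thus began 2.51 Mb before ABCB1 and ended 0.594 Mb after it. The gene-poor gap between SEMA3D and KIAA1324L was 1.75 Mb and held GRM3, a glutamate receptor that reached only 0.230 FPKM in 8505C-PTX. SEMA3D was called with a log2 fold change of 1.85 only, so with a limit of 2 the segment began at KIAA1324L. The end at STEAP4 was reached in each of 6 alternative rules, and the next compared gene, STEAP1, 1.85 Mb farther on, was called down.

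In SW1736-PTX the ends were less sharp. Against SW1736 wt the run reached from CD36 to RUNDC3B (80602188 to 87832298, 7.23 Mb) with 11 of 14 compared genes called up. It stopped 0.119 Mb after ABCB1 because SLC25A40 and DBF4 were not called, although ADAM22, SRI, SRI-AS1 and STEAP4 beyond them were. When 3 consecutive genes were needed to end a run, it extended to STEAP1 at 90.165 Mb. Against 8505C wt the run was SEMA3D to RUNDC3B (2.84 Mb), with all 8 compared genes called up. The start of the segment in SW1736-PTX therefore depended on which wt library was the reference.

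**Figure D2:**
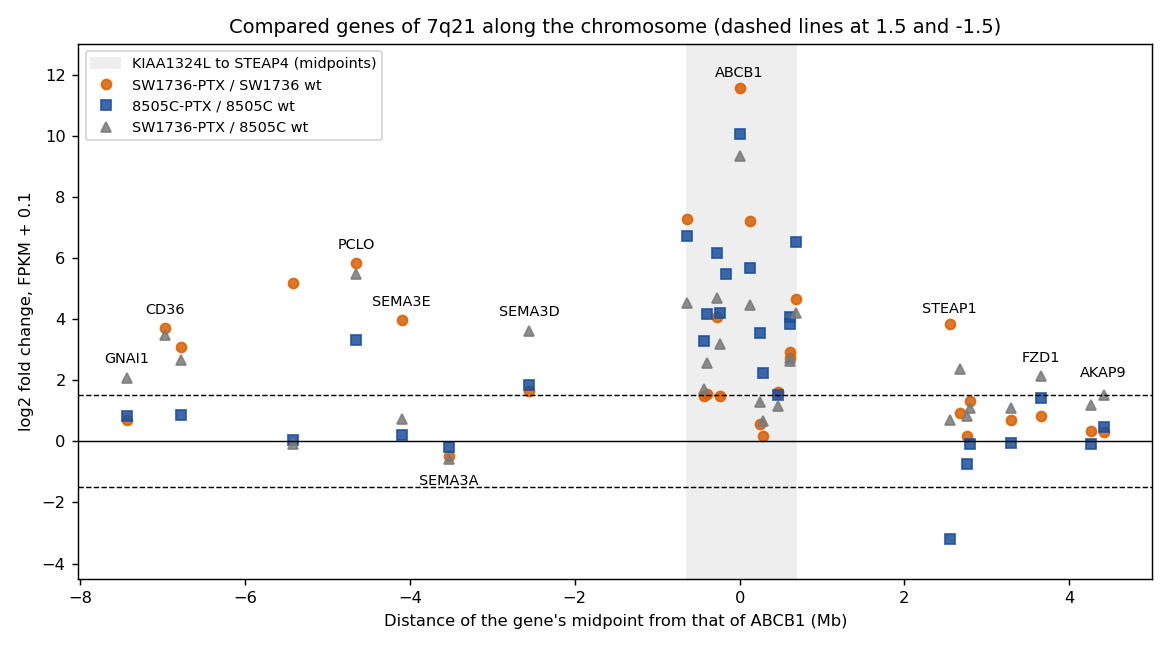
Log2 fold change of FPKM + 0.1 for the compared members against the distance of each gene's midpoint from that of ABCB1 in Mb, for SW1736-PTX over SW1736 wt (circles), 8505C-PTX over 8505C wt (squares) and SW1736-PTX over 8505C wt (triangles). In the grey stretch from KIAA1324L to STEAP4, whose borders were set with earlier results known, all squares lie past the dashed limit of 1.5. Outside it 2 of 14 squares do (14.3%), near the 15.0% of all genes called up in 8505C.

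Before KIAA1324L lie 15 members, of which 8 were compared in SW1736 and 7 in 8505C. In SW1736, 6 of 8 were called up (75%, against 15.7% of all genes) with a median log2 fold change of 3.40. In 8505C, 2 of 7 were called up (28.6%, against 15.0%) with a median of 0.84. CD36, CACNA2D1 and PCLO passed the level limit in the SW1736 pair only through the PTX library, so they had to be raised. The same held for PCLO in 8505C, and for CD36 and PCLO against 8505C wt. Against 8505C wt, 5 of 8 were called up in SW1736-PTX (62.5%, against 15.1%) with a median of 2.38. PCLO (82754005 to 83162881), a scaffold protein of presynaptic active zones, was at 0.0875 and 10.5 FPKM in SW1736 and at 0.141 and 2.29 in 8505C. It was called up in both pairs (5.82 and 3.31) and against 8505C wt (5.46). CD36 (80602188 to 80679277), a scavenger receptor and fatty acid transporter, stood at a listed 0 in SW1736 wt and was at 1.21 FPKM in SW1736-PTX, 0.0160 in 8505C wt and 0.387 in 8505C-PTX. It was called up in SW1736-PTX against both wt libraries (3.71 and 3.49) and did not pass the level limit in 8505C. CACNA2D1 (81946444 to 82443806), a calcium channel subunit, had a listed level of 0 in SW1736 wt and of 3.54, 3.74 and 3.87 FPKM in SW1736-PTX, 8505C wt and 8505C-PTX. Its call in SW1736 (5.19) thus vanished against 8505C wt, where the value was -0.075.

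The class 3 semaphorins are secreted guidance cues that signal through neuropilins and plexins, and 4 of them lie on this side. SEMA3C (80742538 to 80919351) was at 10.7 and 91.4 FPKM in SW1736 and at 14.2 and 25.7 in 8505C, ratios of 8.57 and 1.80. SEMA3D (84995556 to 85121931) was at 3.47 and 11.03 FPKM in SW1736 and at 0.809 and 3.17 in 8505C, log2 fold changes of 1.64 and 1.85. Both were also called up in SW1736-PTX against 8505C wt (2.67 and 3.62). SEMA3E (83363906 to 83649163) went from 1.23 FPKM in the SW1736 parental cells to 20.7, beside 12.5 and 14.5 in 8505C wt and 8505C-PTX, so that it was called against SW1736 wt (3.97) and not against 8505C wt (0.72). SEMA3A (83958343 to 84194901) was at 13.9 and 9.83 FPKM in SW1736 and at 14.9 and 13.1 in 8505C. It was the only one of the 4 whose log2 fold change was below 0 in both pairs (-0.50 and -0.19), and it lies between SEMA3E and SEMA3D. GNAI1 (80134824 to 80219409), an inhibitory G protein subunit, was at 21.2 and 34.8 FPKM in SW1736 and at 8.16 and 14.6 in 8505C, log2 fold changes of 0.71 and 0.84, but it was called against 8505C wt (2.08). HGF, the ligand of the MET receptor, was listed at 0 in all libraries except 8505C-PTX, where it was at 0.266 FPKM.

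After STEAP4 lie 15 members, and the picture was different. In SW1736, 1 of the 8 compared was called up (12.5%, near the 15.7% of all genes), with a median log2 fold change of 0.76. In 8505C, 0 of 7 were (against 15.0% of all genes), with a median of -0.08. All 8 were above 0 in SW1736, whereas 2 of 7 were in 8505C. Against 8505C wt, 3 of 8 were called up in SW1736-PTX (37.5%, against 15.1%), with a median of 1.14. STEAP1 (90154375 to 90164827), a relative of STEAP4 known as a surface antigen of prostate cancer, was at 0.466 and 7.97 FPKM in SW1736 and at 4.93 and 0.442 in 8505C. It was called up in the first pair (3.84) and down in the second (-3.21). Against 8505C wt, the value in SW1736-PTX was 0.68. STEAP2, its neighbour and also a metalloreductase, stayed under 0.5 FPKM everywhere, with 0.147 and 0.321 in SW1736 and 0.412 and 0.0175 in 8505C. The 3 STEAP genes of the region thus did not move together in 8505C, where STEAP4 was called up and STEAP1 called down.

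None of the remaining distal genes was called in the SW1736 or the 8505C pair. FZD1 (91264468 to 91268817), a Wnt receptor, was at 4.78 and 8.60 FPKM in SW1736 and at 1.90 and 5.23 in 8505C, log2 fold changes of 0.83 and 1.42. CLDN12 (90403334 to 90415954), a tight junction protein, was at 5.79 and 14.7 FPKM in SW1736 and at 6.90 and 6.44 in 8505C, log2 fold changes of 1.33 and -0.10. CDK14 (90596362 to 91210590), a cyclin Y-dependent kinase, was at 5.81 and 9.37 FPKM in SW1736 and at 4.36 and 4.20 in 8505C. GTPBP10, a GTPase of the mitochondrial ribosome, MTERF1, a mitochondrial transcription termination factor, and AKAP9, a scaffold of the centrosome and Golgi, had log2 fold changes between 0.19 and 0.34 in SW1736 and of -0.75, -0.08 and 0.47 in 8505C. CFAP69, a protein of cilia and sperm flagella, was between 0.107 and 0.972 FPKM. Against 8505C wt, SW1736-PTX was past the limit for CFAP69 (2.37), FZD1 (2.12) and AKAP9 (1.52).

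Of the 14 members that never passed 0.5 FPKM, 7 were listed at 0 in every library, namely LOC101927269, GNAT3, LOC101927378, C7orf62, STEAP2-AS1, DPY19L2P4 and LOC101927446. The other 7 were HGF, GRM3, STEAP2, ZNF804B, LOC100128317, LOC101927356 and LOC101409256, whose highest values lay between 0.00885 FPKM (ZNF804B) and 0.412 (STEAP2). ZNF804B and C7orf62 lie directly beyond STEAP4, so no expressed gene marks the 1.85 Mb between STEAP4 and STEAP1. The edge of the raised stretch in 8505C can be placed only within that gap.

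The PTX libraries were set against each other next. All 14 genes from KIAA1324L to STEAP4 were higher in 8505C-PTX than in SW1736-PTX, by a median factor of 2.86, from 1.28 for ADAM22 to 10.1 for ABCB4. For ABCB1 the factor was 1.64, for SRI 2.31 and for STEAP4 5.10. Of the 16 other members above 0.5 FPKM in a PTX library, only CACNA2D1 (1.09) and SEMA3A (1.33) were higher in 8505C-PTX, and the median factor was 0.414. Over 13922 genes above 0 in both PTX libraries, the median factor was 0.994. In the wt libraries, 8 of the 14 genes were above 0.5 FPKM in both lines, and their median ratio of 8505C wt to SW1736 wt was 0.670, from 0.300 to 1.40. The PTX libraries thus differed in opposite directions inside and outside the stretch, and with 1 library each the difference has no replicate check.

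**Figure D3:**
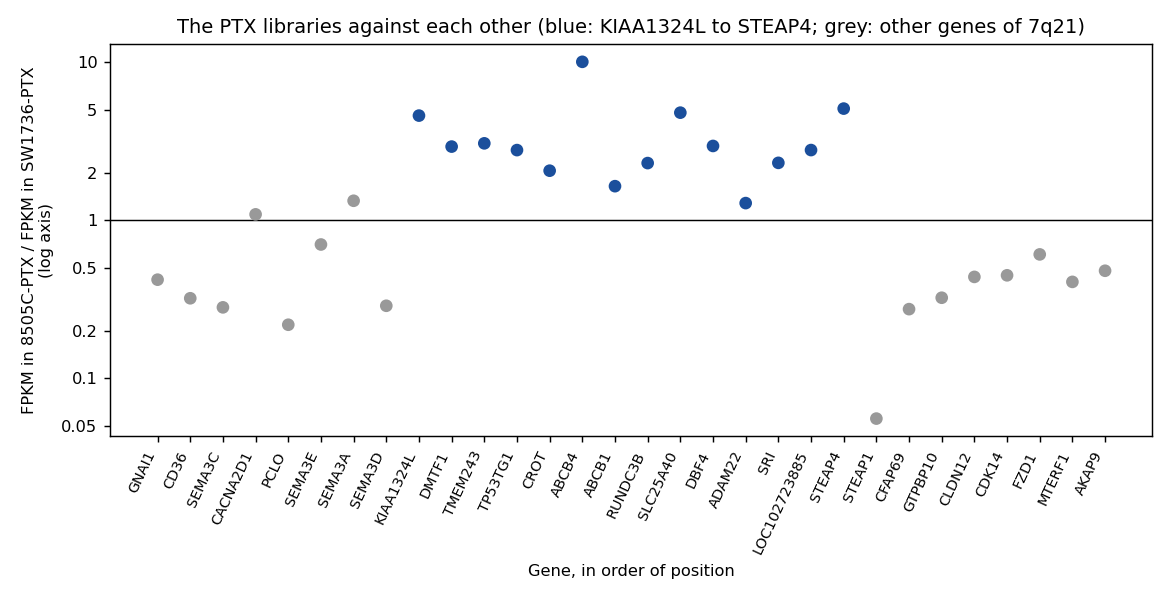
Ratio of FPKM in 8505C-PTX to FPKM in SW1736-PTX on a log axis for the 30 members above 0.5 FPKM in a PTX library, in order of position, with a line at 1 (1 library each). All 14 blue points, KIAA1324L to STEAP4, lie above 1, and 14 of the 16 grey points, the other members, lie below it.

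The chromosome on both sides was examined to see whether the raised expression ended at 80 and 92 Mb. Just inside the lower border lies GNAI1 and just outside it MAGI2-AS3, a long noncoding RNA that was at 16.6 and 0.316 FPKM in SW1736 and at 1.77 and 0.00586 in 8505C. At the upper border, AKAP9 lies inside and CYP51A1, the lanosterol demethylase of cholesterol synthesis, outside, with 17.5 and 146 FPKM in SW1736 and 22.5 and 53.7 in 8505C. From 68 to 80 Mb, 13 of 68 compared genes were called up in SW1736 (19.1%), 21 of 62 in 8505C (33.9%) and 38 of 68 in SW1736-PTX against 8505C wt (55.9%), with median log2 fold changes of 0.63, 0.84 and 1.74. In the 12 Mb beyond 92 Mb, 11 of 130, 12 of 122 and 18 of 120 were called up, and 67, 14 and 16 called down, with medians of -1.53, -0.58 and -0.66. Over all genes compared, 15.7%, 15.0% and 15.1% were called up and 10.2%, 5.89% and 5.23% down. On the rest of chromosome 7 the medians were -0.55, -0.06 and 0.04.

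In bins of 4 Mb, a width chosen after these values were seen, the medians of all 3 comparisons were above 0 from 92 to 96 Mb and below 0 from 96 Mb on. Between 88 and 92 Mb, the 8505C pair alone was slightly below 0 (-0.08, 7 genes). From 92 to 96 Mb, the median was 1.00 in SW1736 (23 genes), 0.80 in 8505C (20 genes) and 1.66 in SW1736-PTX against 8505C wt (22 genes). From 96 to 100 Mb, it was -1.80 (30 genes), -0.97 (26 genes) and -1.06 (26 genes). In the bins from 72 to 76 and 76 to 80 Mb, the medians of SW1736-PTX against 8505C wt were 1.51 (47 genes) and 1.79 (20 genes), and those of 8505C were 0.83 (44 genes) and 0.84 (18 genes). Against its own parental line, SW1736-PTX had medians of 0.22 (47 genes) and 1.06 (20 genes) in these bins. Between the PTX libraries, the median log2 ratio of 8505C-PTX to SW1736-PTX was -0.81 from 72 to 76 Mb, -1.13 from 76 to 80 Mb and -0.76 from 92 to 96 Mb, but 0.04 from 96 to 100 Mb. Increases of moderate size in SW1736-PTX over 8505C wt thus extended beyond the interval on both sides, up to 96 Mb. The 8505C pair, which shares that control, had smaller medians above 0 in the same flanking bins (0.83, 0.84 and 0.80). Its largest median was that of KIAA1324L to STEAP4.

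**Figure D4:**
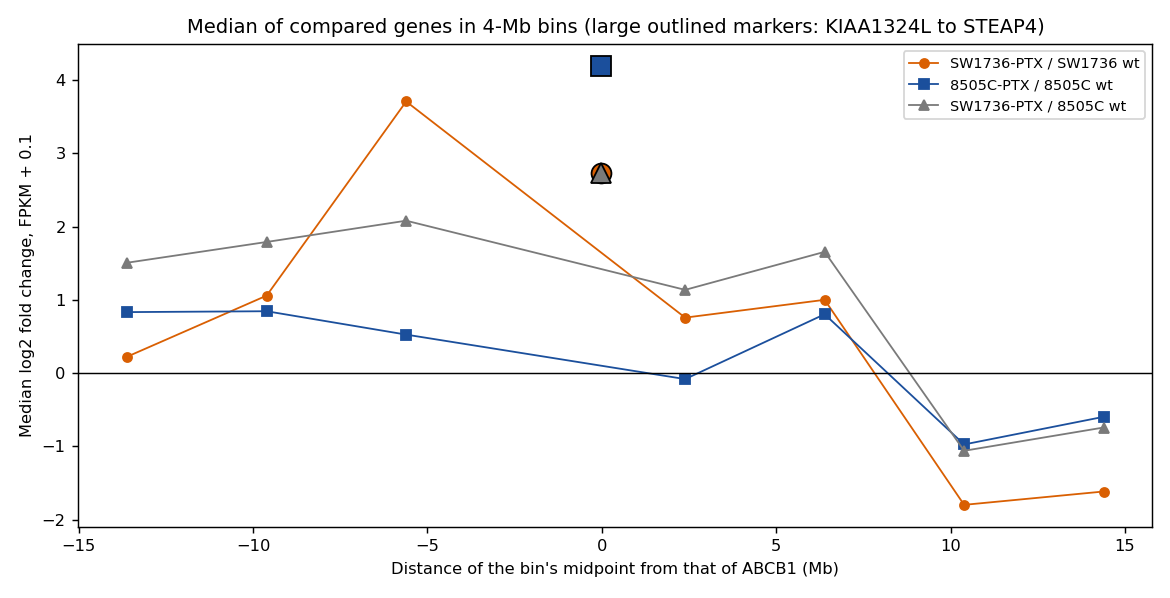
Median log2 fold change of FPKM + 0.1 in 4-Mb bins without the genes from KIAA1324L to STEAP4, against the distance of the bin's midpoint from ABCB1 in Mb, for the 3 comparisons; large outlined markers give the median of that stretch, and bins under 5 compared genes are not drawn. The squares of 8505C lie between -0.08 and 0.84 in the bins up to 96 Mb, far below 4.19 in the stretch, and all 3 lines are below 0 in the last 2 bins.

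Relatives of the members at other places in the genome were compared as a list of 37 genes. In SW1736, 30 were compared, with 9 called up (30.0%, against 15.7% of all genes) and 5 called down (against 10.2% of all genes). The median log2 fold change was 0.37. In 8505C, 10 of 29 were called up (34.5%, against 15.0%) and 0 down (against 5.89%), with a median of 0.63. Against 8505C wt, 9 of 28 were called up in SW1736-PTX (32.1%, against 15.1%) and 0 down (against 5.23%), with a median of 0.54. The relatives as a list were thus also called up more often than all genes, in all 3 comparisons. SEMA3B was at 0.269 and 28.7 FPKM in SW1736 and at 3.32 and 25.7 in 8505C, and CDK18 at 0.296 and 21.4 and at 1.53 and 22.1, so single relatives elsewhere were also called up in both pairs. By contrast, STEAP3 had log2 fold changes of 0.95 and 0.07, DBF4B of -0.66 and -0.71, SLC25A39 of -0.33 and -0.05, and ABCB5 and ABCB11 were listed at 0 in every library.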

How the data were processed

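The members and gene lists were chosen with earlier results of these data known. Per the labels and the study's methods, the authors used bcl2fastq 2.20 for demultiplexing, Cutadapt and ERNE for adapters and quality trimming, STAR for alignment of the single-end 75-base reads (build hg38) and StringTie for gene abundances. The annotation, the strand setting and the versions of STAR, ERNE and StringTie are not given in the sources used here. The deposited tables give per gene the mean read coverage, a signal not scaled to depth, the FPKM and the TPM (scaled to an equal total). They hold no counts, so no count model was used. Rows of a name were summed, and genes across the whole table were compared with a pseudocount of 0.1 FPKM, a minimum of 0.5 FPKM in at least 1 library of a pair and a log2 fold change limit of 1.5. Calls and the trace of the segment were tried on simulated data. There, all segment genes rose by the same factor, other genes of chromosome 7 were unchanged and ABCB1 was expressed in wt cells. That setting is simpler than the real libraries, so it checks the code and not the segment ends reported here. Genes named with values were all members above 0.5 FPKM in a library and those of lists by position, family and relatives elsewhere. Estimated reads are FPKM times depth and the canonical transcript length of GENCODE release 44, and floors of 3 reads cover counting error only. Start windows came from RefSeq (GRCh38.p14). Scripts ran in Python 3.11.15 (pandas 2.3.3, NumPy 2.4.6), with plots from matplotlib 3.10.9. Alternatives changed the pseudocount, the level filter, the unit, the centring, the limit, the rows used, the rule of the segment and the reference of SW1736-PTX.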

Additional observations from a re-analysis of the deposited data

Results flagged for a closer look

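For 5 members compared in both pairs, the log2 fold changes of the lines had opposite signs, and the difference was not tested because each line had 1 pair of libraries. STEAP1 differed most, with 3.84 in SW1736 and -3.21 in 8505C, a difference of 7.05. For CLDN12 the values were 1.33 and -0.10 (difference 1.43), for GTPBP10 0.19 and -0.75 (0.94), for CDK14 0.68 and -0.05 (0.73) and for MTERF1 0.34 and -0.08 (0.42). All 5 lie beyond STEAP4. Against 8505C wt, SW1736-PTX was above 0 for each of them, from 0.68 for STEAP1 to 1.19 for MTERF1.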

How the results depend on the processing

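The cause of the following changes was not tested unless fewer genes compared, given here, account for them. With FPKM above 0.5 in both libraries, 7 of 19 members were called up in SW1736 (4 of 8 from KIAA1324L to STEAP4) and 0 of 22 down in 8505C, the medians were 1.33 and 1.46, and ABCB1 itself was not compared, so no segment could be traced. The shares of all genes called under this and the next settings are not given here, so these counts cannot be set against them. With every member above 0 FPKM in a library compared, 2 members were called down in 8505C and the medians were 1.49 and 1.51. With TPM, 2 were called down in 8505C and its median was 2.19. A pseudocount of 1 gave medians of 1.37 and 1.28, and lowered the members called up to 11 of 29 in SW1736 and 13 of 28 in 8505C. From KIAA1324L to STEAP4 it left 6 of 13 called up in SW1736 and 12 of 14 in 8505C. Centring gave a median of 1.93 in 8505C. With 8505C wt as the reference of SW1736-PTX, the median was 2.12, CACNA2D1 went to -0.075, and the segment began at 84.996 Mb. The segment of SW1736-PTX (80.602 to 87.832 Mb) began at 87.504 Mb when 1 gene ended the run, and at 87.325 Mb with a limit of 2 or a pseudocount of 1. It ended at 90.165 Mb with 3 genes and at 90.311 Mb by a running median of 5 genes. That of 8505C-PTX (84.996 to 88.307 Mb) began at 82.754 Mb with 3 genes, at 86.877 Mb with a limit of 2 or a pseudocount of 1, and at 83.958 Mb by the running median. Counts of calls from KIAA1324L to STEAP4 were varied after the data were seen, and apart from the 4 of 8 above they stayed within 1.5 times of 9 and 14. For single genes, TPM and centring each ended 1 call of 57 values, and a pseudocount of 1 ended 8. No paired analysis was possible because the groups of each comparison had 1 library and shared 1 replicate number, and a fit over both lines with line as a term, which would leave 1 residual degree of freedom, was not run.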
